A study of Homo sapiens with 66 samples.

Results

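The APOBEC3 genes encode cytidine deaminases, and the 7 genes described here were found by their Ensembl identifiers among 57820 genes in the count tables. They lie side by side on the plus strand of chromosome 22, from 39348746 to 39500072 in GRCh37. APOBEC3A (ENSG00000128383.8) spans 39348746 to 39359189, APOBEC3B (ENSG00000179750.11) 39378352 to 39388809, and APOBEC3C (ENSG00000244509.3) 39410262 to 39416357. APOBEC3D (ENSG00000243811.3) spans 39417118 to 39429282, APOBEC3F (ENSG00000128394.12) 39436609 to 39451977, APOBEC3G (ENSG00000239713.3) 39473072 to 39483748, and APOBEC3H (ENSG00000100298.11) 39493229 to 39500072. APOBEC3 enzymes turn cytidine into uridine in single-stranded DNA, which damages retroviral genomes and hinders retrotransposons, and several of them are known as genes induced by type I IFN in myeloid cells. ADAR, which the study targeted, acts on another base and another nucleic acid: it turns adenosine into inosine (A-to-I editing) in double-stranded RNA. hnRNPC is a nuclear RNA-binding protein that keeps cryptic exons in antisense Alu elements out of mature transcripts.

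RNA-seq study 1 used a STING-deficient clone, and study 2 a wild-type clone, of the human monocytic leukemia line THP-1. Both carried a Cas9 transgene, so each study rests on 1 clone and the STING deficiency of study 1 is shared by its control cells. In study 1, cells were nucleofected with gRNA against ADAR, hnRNPC, both (ADAR+hnRNPC), or GFP, or with nontarget gRNA (CTRL), and harvested on days 3, 4, and 5; a further CTRL group had IFN-α from day 3 until harvest on day 4 (total RNA, 16 groups of 3 libraries). In study 2, total RNA and RNA of the digitonin-soluble cytosol of CTRL cells, of cells with either gRNA, and of cells with both was sequenced on day 4, as was RNA of the digitonin-insoluble fraction (nuclei and mitochondria, called nuclear) with hnRNPC gRNA (9 groups of 2 libraries). Per the study's description, the libraries of a group came from independent experiments, although the labels give only a replicate number.

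Gene counts per library ranged from 95107690 to 152829008 in study 1 and from 49666958 to 73873756 in study 2. HNRNPC had 294 to 417 CPM (counts scaled to the library size with TMM factors) in libraries of study 1 with its gRNA and 725 to 869 in the others. In study 2 the ranges overlapped, with 297 to 701 CPM with and 581 to 1025 without hnRNPC gRNA over all fractions. In study 1, ADAR mRNA did not separate targeted cells (344 to 1509 CPM) from the others (364 to 1373) over all groups. These groups include cells with IFN-α and cells with both gRNAs on day 5, where ADAR mRNA was higher than in CTRL cells. In study 2, ADAR mRNA had 447.6 to 882.5 CPM with and 840.1 to 1278 without ADAR gRNA over all fractions, so the ranges overlapped little. Of 10 monocytic markers, 8 passed the filter on low counts in study 1. CD68 had at most 34 counts and CD14 at most 540, and T cell markers had at most 11. ITGAM, an integrin of monocytes, was the only monocytic marker called in ADAR+hnRNPC-targeted cells on day 5 (log2 fold change 2.31, standard error 0.0995, edgeR adjusted p = 7.56e-22). It was also higher with hnRNPC gRNA alone (1.15). MPO, a granule enzyme of myeloid precursors, had the lowest value with both gRNAs (−0.96, standard error 0.111, adjusted p = 8.02e-10), and the median of the 8 markers was 0.04. Their part in the results was not tested.

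The members differed widely in level. Levels of different genes were compared as RPKM (CPM per kilobase of merged exons). In CTRL cells on day 5, APOBEC3C, which restricts some retroviruses weakly, was the highest with 15.4 ± 1.26 RPKM (SD, n = 3). APOBEC3G, the best known restriction factor of the family, followed with 3.57 ± 0.0778 RPKM and APOBEC3B, a nuclear enzyme known from mutations of tumor genomes, with 3.17 ± 0.0635 (SD, n = 3 each). APOBEC3D with 0.541 ± 0.0833, APOBEC3H with 0.456 ± 0.0332, and APOBEC3F with 0.403 ± 0.0557 RPKM came next (SD, n = 3 each). In this order, APOBEC3H overlapped both of its neighbors, and each other neighboring pair was apart in these 3 libraries. APOBEC3A, a deaminase that is strongly inducible in primary monocytes, had counts of 0, 0, and 1. Exon lengths came from a later annotation than the one used for counting and hold noncoding transcripts, and for APOBEC3B 36.1% of its 100-base exon windows occur again in the cluster (APOBEC3A 9.64%, APOBEC3D 8.33%, APOBEC3G 5.96%, APOBEC3F 4.41%, APOBEC3C and APOBEC3H 0%). Since only uniquely mapped reads were counted, the level of APOBEC3B is uncertain, and the order of genes is a description.

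With both gRNAs the order on day 5 was another. APOBEC3G led with 20.3 ± 3.33 RPKM, followed by APOBEC3C with 12.3 ± 1.23, APOBEC3B with 2.88 ± 0.23, APOBEC3F with 2.24 ± 0.364, APOBEC3H with 1.74 ± 0.308, APOBEC3D with 0.818 ± 0.11, and APOBEC3A with 0.48 ± 0.198 RPKM (SD, n = 3 each). APOBEC3B and APOBEC3F overlapped, as did APOBEC3F and APOBEC3H. The summed level of the 7 genes was 23.5 ± 1.49 RPKM in CTRL cells of day 5 and 40.7 ± 2.66 with both gRNAs (SD, n = 3 each). APOBEC3C held 65.4 ± 1.3% of this sum in CTRL cells and 30.4 ± 4.84% with both gRNAs, and APOBEC3G 15.2 ± 0.642% and 49.6 ± 4.78% (SD, n = 3 each). RNA of a whole culture does not tell a rise in every cell from a larger share of cells with the transcript.

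**Figure D1:**
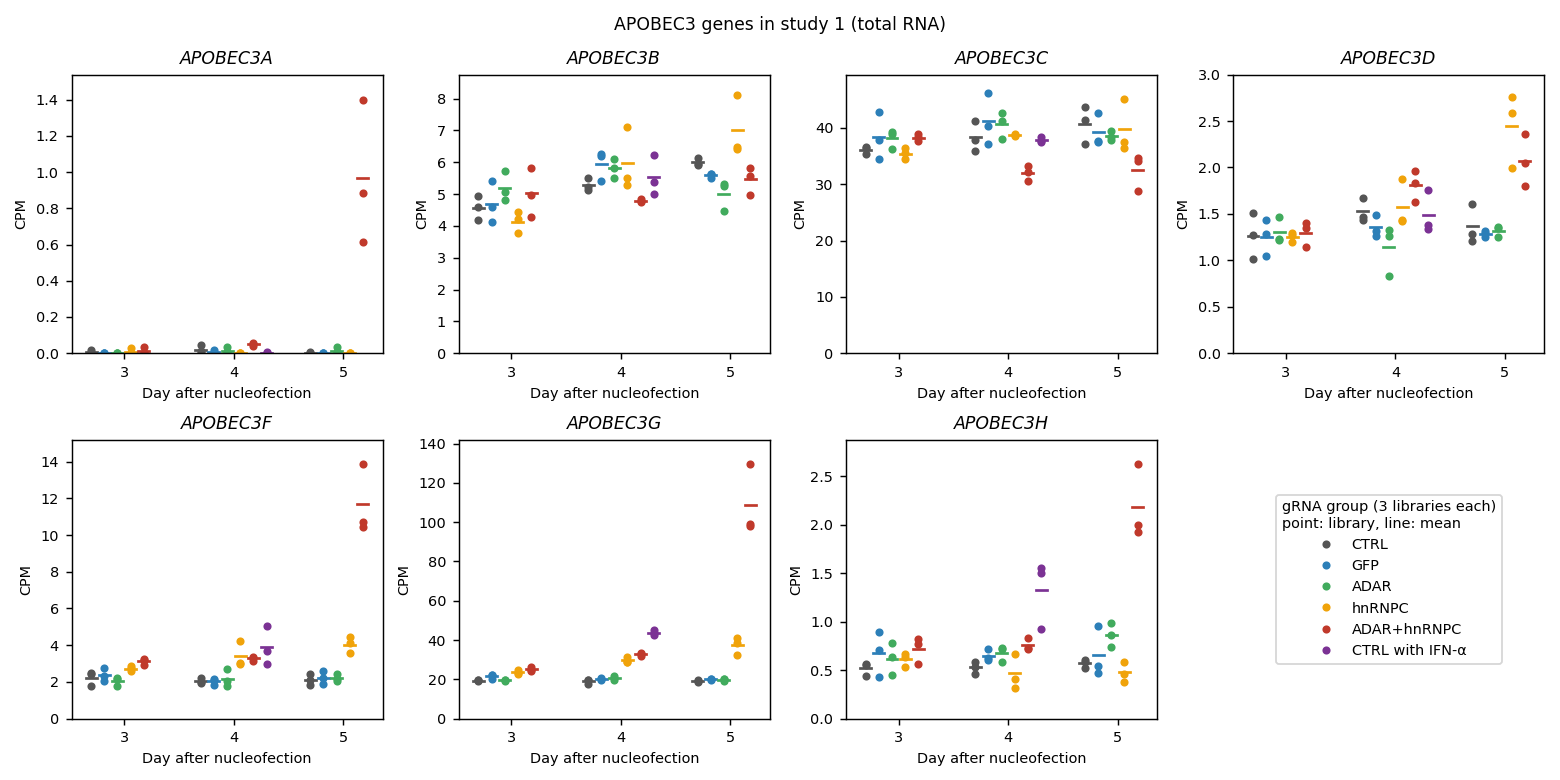
Normalised counts (CPM, linear axes from 0) of the 7 APOBEC3 genes against the day after nucleofection in study 1, with 1 point per library and a line at the mean of 3. On day 5, all 3 ADAR+hnRNPC libraries lay above every other library for APOBEC3A, APOBEC3F, APOBEC3G, and APOBEC3H.

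The first comparison asked how the family responded to IFN-α. APOBEC3G rose, and APOBEC3F was also higher but by slightly less than the fold threshold. APOBEC3G had 19.6, 17.5, and 19.5 CPM in CTRL cells and 43.5, 44.9, and 42.8 CPM with IFN-α on day 4. The groups were far apart, with a fold change of 2.32 (log2 1.21, standard error 0.0738, adjusted p = 2.09e-16 by the edgeR quasi-likelihood F test, adjusted after Benjamini and Hochberg for 13193 genes). Calls required a change of 2-fold or more (1 on the log2 scale) together with an adjusted p no larger than 0.05. APOBEC3G was thus 1 of 5 tested members called higher, where 1.21% of all genes tested were. APOBEC3F, which acts on retroviruses beside APOBEC3G, had 2.24, 1.98, and 1.94 CPM without and 3.71, 2.98, and 5.03 CPM with IFN-α (log2 fold change 0.93, standard error 0.17, adjusted p = 1.02e-04). Its treated libraries spread more than those of APOBEC3G, and without IFN-α replicate 2 its log2 fold change was 1.09 and it was called. APOBEC3B, APOBEC3C, and APOBEC3D had log2 fold changes from −0.04 to 0.07, with adjusted p from 0.757 to 0.912.

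APOBEC3A and APOBEC3H were below the filter on low counts (an average log2 CPM of 0.5) in both studies and were tested only with all genes that had at least 1 count. In this test of 45744 genes, 0.697% were called higher with IFN-α. APOBEC3H, a restriction factor that is known for stable and unstable protein forms in the population, was among them. It had 50, 87, and 80 counts without and 159, 158, and 114 with IFN-α (log2 fold change 1.32, standard error 0.308, adjusted p = 7.98e-04). APOBEC3A had counts of 0, 2, and 7 in CTRL cells on day 4 and of 1, 0, and 0 with IFN-α, too few for a fold change.

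Targeting of ADAR alone or of GFP left the tested members near the level of CTRL cells. On day 5, log2 fold changes ranged from −0.26 to 0.07 in ADAR-targeted and from −0.10 to 0.08 in GFP-targeted cells. None of the 5 tested members was called by edgeR, limma-voom, or DESeq2, where edgeR called 0.273% of all genes in either direction in ADAR-targeted and 0.212% in GFP-targeted cells. At an unadjusted p under 0.05 the count was 1 with ADAR gRNA (APOBEC3B, log2 fold change −0.26, standard error 0.117) and 0 with GFP gRNA. CTRL cells themselves differed between days 5 and 3 in APOBEC3B (log2 fold change 0.39, standard error 0.117, adjusted p = 0.0123), and edgeR, limma-voom, and DESeq2 called none of the 5, against 0.667% of all genes by edgeR and 2 of the 5 at an unadjusted p under 0.05. Each gRNA group was therefore compared with CTRL cells of its own day.

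Targeting of hnRNPC alone was followed by higher levels of 3 neighboring members on day 5, each by slightly less than 2-fold. APOBEC3G had 19.3, 19.5, and 18.7 CPM in CTRL and 40.99, 38.5, and 32.2 CPM in hnRNPC-targeted cells (log2 fold change 0.96, standard error 0.0733, adjusted p = 5.76e-14). APOBEC3F had 1.82, 2.40, and 2.09 CPM against 4.43, 4.11, and 3.56 (log2 fold change 0.94, standard error 0.169, adjusted p = 8.97e-06). APOBEC3D, a double-domain deaminase like APOBEC3F and APOBEC3G, had 1.21, 1.61, and 1.29 CPM against 2.76, 2.59, and 2.00 (log2 fold change 0.84, standard error 0.162, adjusted p = 2.63e-05). The groups did not overlap for any of these genes. Because of the fold threshold none of the 5 members was called by edgeR, limma-voom, or DESeq2, where edgeR called 3.98% of all genes higher, although 3 had an unadjusted p under 0.05. The call depended on single libraries: without CTRL replicate 2, APOBEC3F had a log2 fold change of 1.04, and without hnRNPC replicate 3, APOBEC3F had 1.02 and APOBEC3G 1.052. APOBEC3C had −0.04 and APOBEC3B 0.22 (adjusted p = 0.7 and 0.0886). APOBEC3H had 54, 90, and 66 counts against 77, 83, and 77 in CTRL cells, and APOBEC3A had none in any hnRNPC-targeted library of day 5. The higher levels of APOBEC3G appeared on day 3 with 0.29 (standard error 0.0733, adjusted p = 0.0017) and on day 4 with 0.66 (standard error 0.0732, adjusted p = 1.9e-09) on the log2 scale.

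**Figure D2:**
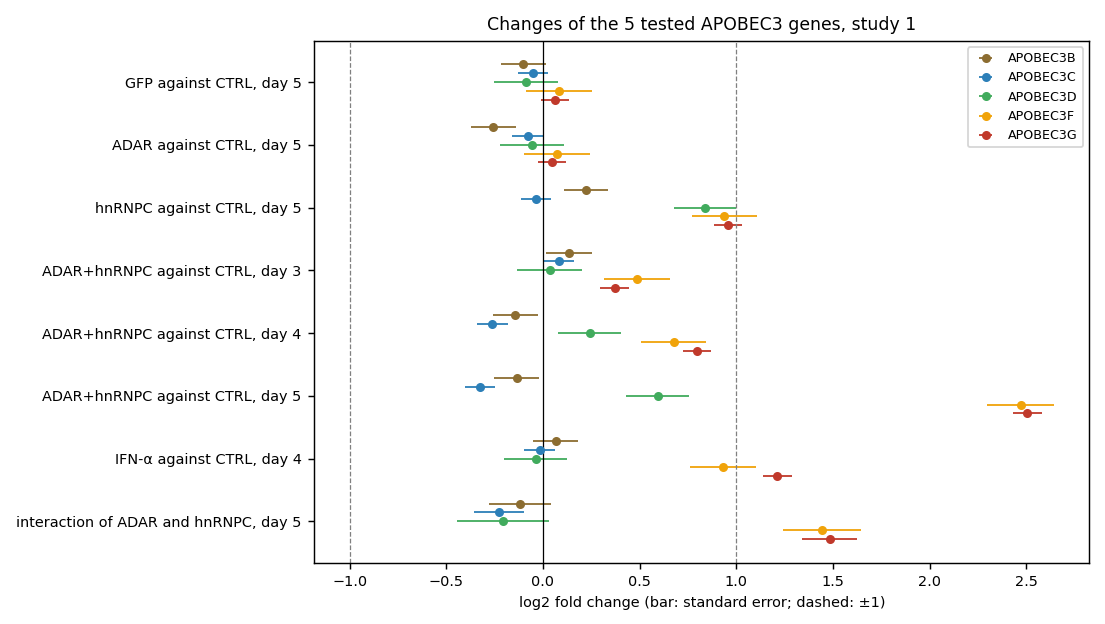
Log2 fold changes (points) with standard errors (bars) of the 5 tested APOBEC3 genes for 8 comparisons of study 1, with dashed lines at the fold threshold. The largest values were those of APOBEC3F (2.47) and APOBEC3G (2.51) with both gRNAs on day 5, and APOBEC3B and APOBEC3C stayed between −0.33 and 0.22.

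Targeting of both genes gave the highest levels of APOBEC3A, APOBEC3F, APOBEC3G, and APOBEC3H in the data, and they appeared between days 4 and 5. On day 5, APOBEC3G had 98.0, 99.2, and 130 CPM in ADAR+hnRNPC-targeted cells, against 18.7 to 19.5 in CTRL cells. Its fold change was 5.68 (log2 2.51, standard error 0.0762, adjusted p = 2.24e-26). APOBEC3F had 10.7, 10.5, and 13.9 CPM, against 1.82 to 2.40 in CTRL cells, with a fold change of 5.54 (log2 2.47, standard error 0.174, adjusted p = 1.74e-15). Replicate 3 was the highest library for both genes. These were 2 of 5 tested members, where 9.41% of all genes tested were called higher. APOBEC3D had 2.04, 2.36, and 1.80 CPM against 1.21 to 1.61, a difference under the fold threshold (log2 0.595, standard error 0.163, adjusted p = 0.00139). APOBEC3C had 34.6, 34.1, and 28.8 CPM against 41.3, 43.7, and 37.2 and thus was lower in every library (log2 fold change −0.33, standard error 0.0791, adjusted p = 3.78e-04). APOBEC3B had 5.57, 5.83, and 4.98 CPM against 5.93, 6.14, and 5.93 (log2 fold change −0.14, adjusted p = 0.292).

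APOBEC3A was almost absent from the other libraries. It had 70, 111, and 184 counts in ADAR+hnRNPC-targeted cells on day 5, and at most 7 counts in any of the other 45 libraries of study 1, of which 28 had none. Relative to CTRL cells of day 5 with a single count, the ratio of reads was 409 (95% exact interval 72.9 to 16200, counting error only). The 3 hnRNPC-targeted libraries of day 5 had no reads. ADAR+hnRNPC-targeted cells of day 4 had 6, 5, and 7 counts, and the ratio of day 5 to day 4 was 20.2 (interval 12.6 to 34.4). APOBEC3H had 220, 250, and 346 counts on day 5, against 77, 83, and 77 in CTRL cells (log2 fold change 1.93, standard error 0.308, adjusted p = 3.08e-09). In this test without the filter, APOBEC3A and APOBEC3H were called beside APOBEC3F and APOBEC3G, and 8.25% of all genes were called higher.

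The same cells on earlier days showed smaller differences. On day 3, APOBEC3G had 26.3, 24.3, and 24.5 CPM against 19.6, 18.9, and 19.5 in CTRL cells (log2 fold change 0.37, standard error 0.0734, adjusted p = 1.58e-04). On day 4 it had 32.9, 32.1, and 33.5 CPM (log2 fold change 0.80, standard error 0.0733, adjusted p = 1.26e-11). APOBEC3F had log2 fold changes of 0.485 on day 3 and 0.68 on day 4 (adjusted p = 0.0291 and 8.92e-04). None of the 5 members was called by edgeR, limma-voom, or DESeq2 on day 3 or 4, where edgeR called 0.864% and 3.42% of all genes higher and 2 and 3 of the 5 members had an unadjusted p under 0.05. The increase of the response from day 3 to day 5 was 2.14 on the log2 scale for APOBEC3G (standard error 0.104, adjusted p = 1.88e-19), 1.99 for APOBEC3F (standard error 0.239, adjusted p = 6.94e-09), and 0.56 for APOBEC3D (standard error 0.233, adjusted p = 0.0407). For APOBEC3C it was −0.41 (standard error 0.112, adjusted p = 0.00214). By adjusted p alone, 26.5% of all genes had an increase and 28% a decrease in this test.

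ADAR+hnRNPC-targeted cells on day 5 were also compared with CTRL cells that had IFN-α on day 4. The groups differ in the day as well. APOBEC3F was higher by 1.58 (standard error 0.168, adjusted p = 1.17e-10) and APOBEC3G by 1.32 (standard error 0.0731, adjusted p = 2.54e-18) on the log2 scale, and 8.84% of all genes were called higher. APOBEC3A had 365 reads in the 3 libraries against 1 (ratio 325, interval 58.0 to 12900), and its difference was called in the test without the filter, which called 8.97% of all genes higher. APOBEC3H did not differ past the threshold between the same groups (log2 difference 0.72, standard error 0.296, adjusted p = 0.0529). APOBEC3D had a log2 difference of 0.47 and APOBEC3C one of −0.22 (adjusted p = 0.00962 and 0.0129), both under the fold threshold.

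The interaction asked whether the response to both gRNAs exceeded the sum of the responses to each on the log2 scale. On day 5 it was 1.48 for APOBEC3G (standard error 0.142, adjusted p = 1.52e-06) and 1.44 for APOBEC3F (standard error 0.201, adjusted p = 5.08e-05), so 2 of 5 members had a positive interaction where 22.8% of all genes did by adjusted p alone. APOBEC3D had −0.21, APOBEC3C −0.23, and APOBEC3B −0.12, with adjusted p from 0.165 to 0.57. Without the filter, APOBEC3H had an interaction of 1.58 (standard error 0.352, adjusted p = 1.05e-04), and APOBEC3A passed as well (adjusted p = 0.0332), with 7.36% of all genes positive. On day 4, APOBEC3C had an interaction of −0.35 (standard error 0.0913, adjusted p = 0.0476), where 0.925% of all genes had a negative one. This value was just past the threshold and did not pass it without any of 11 of the 12 libraries. On day 3, interactions of the 5 members ranged from 0.02 to 0.32, with adjusted p from 0.642 to 0.988.

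The patterns of APOBEC3F and APOBEC3G across study 1 were close. Over the 16 group means of log2 CPM their Pearson correlation was 0.986, and the ratio of APOBEC3G to APOBEC3F in CPM was between 7.45 and 11.1 in all libraries but those with IFN-α, where it reached 15.1. Among all tested genes that are not members, ZNFX1 (0.99) and SLFN12 (0.983) were most like APOBEC3G, and GBP3 (0.982) and USP15 (0.978) most like APOBEC3F. Those nearest to APOBEC3D were BTBD9 (0.93) and TNRC6A (0.929), to APOBEC3C ARL6IP5 (0.89) and HLA-DRB1 (0.884), and to APOBEC3B RNF145 (0.834) and PTGFRN (0.819). These are descriptions over groups of the same libraries, and the highest of many correlations were taken.

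Genes around the family were read from fixed lists. Of 8 tested genes on both sides of the cluster, NPTXR was the highest with both gRNAs on day 5 (0.61 on the log2 scale, under the fold threshold, beside 1.44 with hnRNPC gRNA alone, where it was called with adjusted p = 1.43e-08), and RPL3, a ribosomal protein gene, was called lower (log2 fold change −1.05, standard error 0.0664, adjusted p = 8.55e-17), where 6.22% of all genes were. The median of these 8 genes was −0.51 on the log2 scale, against −0.04 over all tested genes. The polycomb genes next to the cluster, CBX6 and CBX7, had −0.58 and −0.54. Within the cluster, the pseudogene APOBEC3AP1 and the antisense gene APOBEC3B-AS1 had no counts in study 1. Of the wider family, APOBEC1, APOBEC2, and APOBEC4 were below the filter, with at most 97 counts.

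Among 9 other restriction factors of retroviruses, 6 were called higher with both gRNAs on day 5, beside 9.41% of all genes. TRIM22 had the largest difference (log2 fold change 7.46), followed by MX2, which blocks nuclear import of retroviral DNA (4.98), TRIM5, a sensor of capsids (2.95), ZC3HAV1 (1.66), MOV10 (1.29), and BST2, which tethers virions (1.23). With IFN-α, 4 of the 9 were called, beside 1.21% of all genes. STAT2 and IRF9, which carry the type I IFN signal to genes, were called in both comparisons: STAT2 with 1.73 by IFN-α and 2.47 by both gRNAs, and IRF9 with 2.60 and 2.88 on the log2 scale. With hnRNPC gRNA alone on day 5, STAT2 had −0.21 and IRF9 0.36 (adjusted p = 0.0551 and 0.289). Of the restriction factors, TRIM22 was called higher there (1.56, edgeR adjusted p = 2.83e-09), where 3.98% of all genes were. MOV10 had 0.73, under the fold threshold (edgeR adjusted p = 2.27e-08). BST2, MX2, TRIM5, and ZC3HAV1 had 0.17, 0.06, −0.0004, and 0.17, and SERINC3, SERINC5, and SLFN11 had −0.16, −0.50, and −0.24. Of 8 genes of uracil repair and nucleotide supply, 2 were called lower with both gRNAs on day 5, beside 6.22% of all genes. UNG, the glycosylase that removes uracil from DNA, fell by 1.24 (standard error 0.0728, adjusted p = 9.91e-18) and DUT, which keeps dUTP low, by 1.115 on the log2 scale (standard error 0.0705, adjusted p = 7.89e-17). The highest of the 8 was MBD4 with 0.32. With hnRNPC gRNA alone on day 5, UNG had −0.75 and DUT −0.72 (edgeR adjusted p = 2.3e-11 and 2.57e-11), both under the fold threshold.

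Intron counts of study 1 covered the parts of a gene outside exons of its principal transcripts, so an intron can hold exons of other transcripts that also enter the gene count. Of 42 deposited introns inside the 7 genes, 1 passed the filter, an intron of APOBEC3G at 39475091 to 39476937. It had 1.97 ± 0.112 CPM in CTRL cells and 5.34 ± 0.693 with hnRNPC gRNA on day 5 (SD, n = 3 each), a log2 fold change of 1.44 (standard error 0.185, adjusted p = 9.5e-08), where 4% of all introns were called higher. The gene count of APOBEC3G differed by 0.96 between the same libraries. In the later annotation, retained-intron transcripts of APOBEC3G cover parts of this interval, so the gene and intron values may share reads, and their difference was not tested. In ADAR+hnRNPC-targeted cells the intron had 12.9 ± 1.98 CPM (SD, n = 3; log2 fold change 2.71, standard error 0.191, adjusted p = 1.51e-14), beside 2.51 for the gene, and 5.49% of introns were called higher. With IFN-α it had 3.95 ± 0.402 CPM against 2.17 ± 0.411 (SD, n = 3 each; log2 fold change 0.87, standard error 0.184, adjusted p = 0.00308), under the fold threshold, where 0.821% of introns were called higher. With ADAR gRNA alone it had 2.27 ± 0.1 CPM on day 5 (SD, n = 3; log2 fold change 0.21, adjusted p = 0.978). In APOBEC3F, the intron at 39439096 to 39440945 was below the filter, with 1.40 ± 0.214 CPM in CTRL, 2.85 ± 0.0947 with hnRNPC gRNA, and 5.41 ± 0.102 with both gRNAs on day 5 (SD, n = 3 each). The deposited introns also hold an interval from 39449916 to 39473009 that runs from inside APOBEC3F to just before APOBEC3G, so reads there were counted as intronic. An intron of APOBEC3B at 39380237 to 39381816, also below the filter, had 0.33 ± 0.127 CPM in CTRL, 1.09 ± 0.234 with hnRNPC gRNA, and 1.23 ± 0.0953 with both gRNAs on day 5 (SD, n = 3 each), while the gene as a whole had log2 fold changes of 0.22 and −0.14.

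A-to-I editing could be read within the members themselves. The authors kept sites that were edited in a sample with intact ADAR, so lower editing with ADAR gRNA is in part built into the choice of sites and is given as a description, with no test. The deposited editing sites of study 1 included 99 in the 7 genes, all at an A on the strand of the genes: 17 in the 3′ UTR of APOBEC3C, 10 in APOBEC3F, and 72 in APOBEC3G, of which 64 lay in the intron above. The 4 most edited sites of APOBEC3C, among 17 with at least 100 reads in the 3 CTRL libraries of day 5, and the 2 most edited of APOBEC3G, among 57 with at least 30 reads, are shown with the 10 bases on both sides (GRCh37, chromosome 22, plus strand, 5′ to 3′, the edited A in capitals), since editing is described at these bases.
APOBEC3C at 39415905: ccgcctcccgAgtttaagcga
APOBEC3C at 39415911: cccgagtttaAgcgattcttc
APOBEC3C at 39415872: atgcaatggcAcaatctggac
APOBEC3C at 39416081: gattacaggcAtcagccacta
APOBEC3G at 39475462: agctgcgattAcaggtgccca
APOBEC3G at 39475998: gtagtgagccAagattgcatc
The base before the edited A was C at 39.4% of the 99 sites, A at 27.3%, T at 17.2%, and G at 16.2%.

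At 39415905, the most edited of them, 42.4% of 510 reads were edited in CTRL cells of day 5 (39.0 to 48.9% in single libraries). The level was 12.3% of 389 reads (9.47 to 14.4%) in ADAR-targeted, 18.2% of 402 reads (15.3 to 23.1%) in ADAR+hnRNPC-targeted, and 39.2% of 472 reads (32.8 to 44.4%) in hnRNPC-targeted cells. Cells with ADAR gRNA were thus apart from those without, and hnRNPC-targeted cells overlapped CTRL cells. With IFN-α the level was 69.5% of 325 reads (62.5 to 82.4%), against 39.8% of 467 reads (37.1 to 41.1%) in CTRL cells of day 4. At 39416081, editing was 15.9% of 535 reads in CTRL and 2.61% of 498 reads in ADAR-targeted cells of day 5, and 56.0% of 402 reads with IFN-α against 14.4% of 606 reads on day 4. In the intron of APOBEC3G coverage was low: at 39475998, 10 of 41 reads were edited in CTRL cells (24.4%, 95% Wilson interval 13.8 to 39.3%, counting error only) and 16 of 219 in ADAR+hnRNPC-targeted cells (7.31%, interval 4.55 to 11.5%). Sites were chosen for high editing in CTRL cells of day 5, so their values are a description.

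Over all sites with at least 10 reads in each of the 12 libraries of a day, editing levels are given per day. APOBEC3C held 13 of the 14 sites on day 3, 13 of 21 on day 4, and 15 of 30 on day 5. Reads were summed over the sites, so sites with more reads weigh more. The levels are thus not those of the family as a whole. On day 3 (14 sites) the mean was 1.67 ± 0.24% in the 6 libraries with and 7.33 ± 0.762% in the 6 without ADAR gRNA (SD). On day 4 (21 sites) it was 1.46 ± 0.273% against 5.73 ± 0.998%, and on day 5 (30 sites) 1.98 ± 0.522% against 7.04 ± 0.635% (SD, n = 6 each). The ranges did not overlap on any day: the highest library with ADAR gRNA had 2.62% and the lowest without had 4.52%. Sites differ between days, so days were not compared. In APOBEC3C, 9 sites had a value and at least 10 reads in all 48 libraries. They lie from 39415862 to 39416077 and leave out 39415905, 39415911, and 39416081, which were among the most edited sites. Their level is thus not that of the whole 3′ UTR. At these 9 sites, CTRL cells of day 4 had 2.68 ± 0.203% and cells with IFN-α 13.2 ± 3.35% (SD, n = 3 each). The libraries did not overlap (2.44 to 2.81% and 11.1 to 17.0%), and no test was made. ADAR mRNA itself was 1.61 higher with IFN-α on the log2 scale (standard error 0.0822, adjusted p = 7.5e-19), and its part in this difference was not tested. In ADAR+hnRNPC-targeted cells of day 5, where ADAR mRNA was 1.75 higher than in CTRL cells, the 9 sites had 1.43 ± 0.597% (SD, n = 3), against 0.373 ± 0.0989% in ADAR-targeted and 3.04 ± 0.611% in CTRL cells.

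**Figure D3:**
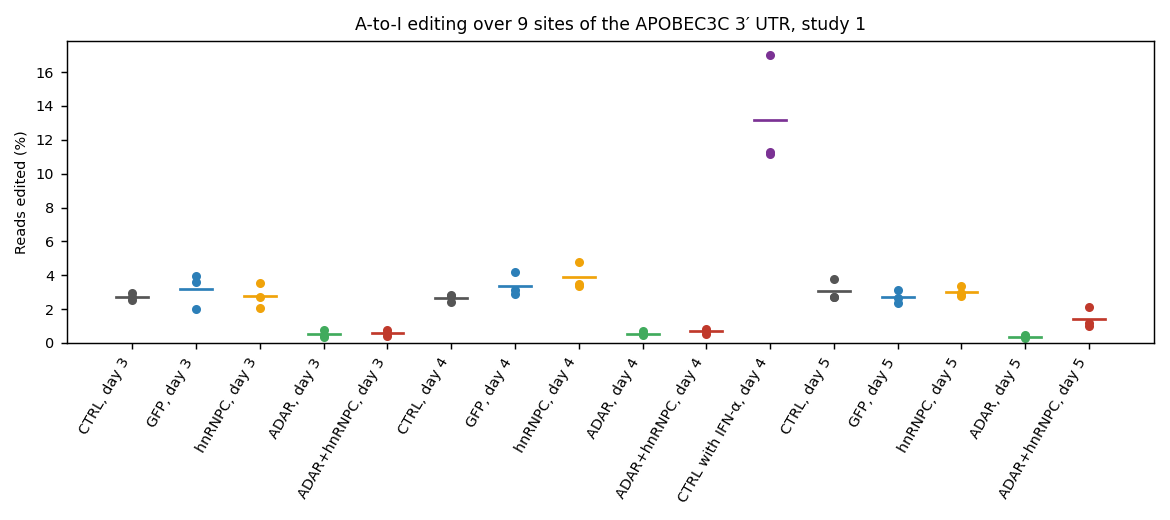
Percent of reads edited over 9 sites in the 3′ UTR of APOBEC3C, per library (points) and as the group mean (lines), for the 16 groups of study 1. The more edited sites 39415905, 39415911, and 39416081 are not among the 9. Libraries with ADAR gRNA lay between 0.262 and 2.11%, those with neither ADAR gRNA nor IFN-α between 1.99 and 4.79%, and those with IFN-α between 11.1 and 17.0%.

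In study 2, the wild-type clone on day 4, APOBEC3G had the largest positive log2 fold change with both gRNAs among the 5 tested members in cytosolic RNA. In cytosolic RNA it had 23.2 and 19.3 CPM in CTRL, 32.9 and 27.6 in ADAR-targeted, 27.4 and 27.5 with hnRNPC gRNA, and 49.7 and 40.5 with both gRNAs. The log2 fold change with both gRNAs was 1.08 (standard error 0.169, adjusted p = 1.11e-04), so 1 of 5 tested members was called, where 6.67% of 13650 genes were called higher. The call was lost without ADAR+hnRNPC replicate 1 (log2 fold change 0.93) and without CTRL replicate 2 (0.96). In total RNA, APOBEC3G had 23.0 and 17.0 CPM in CTRL cells and 36.8 and 26.6 with both gRNAs (log2 fold change 0.67, standard error 0.169, adjusted p = 0.00683). None of the 5 was called there by edgeR, limma-voom, or DESeq2, where edgeR called 3.36% of genes higher. By edgeR, 4 of the 5 had an unadjusted p under 0.05, as did 6173 of 13650 genes. APOBEC3F had log2 fold changes of 0.65 in cytosolic and 0.64 in total RNA (adjusted p = 0.0611 and 0.0751). APOBEC3C had −0.36 and −0.65 (adjusted p = 0.0501 and 0.00271) and APOBEC3B −0.77 and −0.58 (adjusted p = 0.0141 and 0.0613), all under the fold threshold. Total RNA of CTRL cells held a library that stood apart for APOBEC3D, with 0.503 CPM in replicate 2 and 1.84 in replicate 1. APOBEC3A had 18 and 12 counts in cytosolic RNA of ADAR+hnRNPC-targeted cells, against 6 and 2 in CTRL cells, and at most 9 in any other group. APOBEC3H had 90 and 72 counts in the same libraries, against 55 and 24. In total RNA it had 87 and 45 against 39 and 27 counts (log2 fold change 1.04, standard error 0.372, adjusted p = 0.046 without the filter). No interaction passed among the 5 members in edgeR, limma-voom, or DESeq2 (edgeR adjusted p from 0.223 to 0.726 in total and of 1 in cytosolic RNA, with 0 at an unadjusted p under 0.05). Of 13650 genes, 5429 in total and 345 in cytosolic RNA had an unadjusted p under 0.05 for the interaction by edgeR. With a single gRNA, APOBEC3G passed the adjusted p under the fold threshold in total RNA with hnRNPC gRNA (log2 fold change 0.61, adjusted p = 0.0475) and in cytosolic RNA with ADAR gRNA (0.51, adjusted p = 0.0385).

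**Figure D4:**
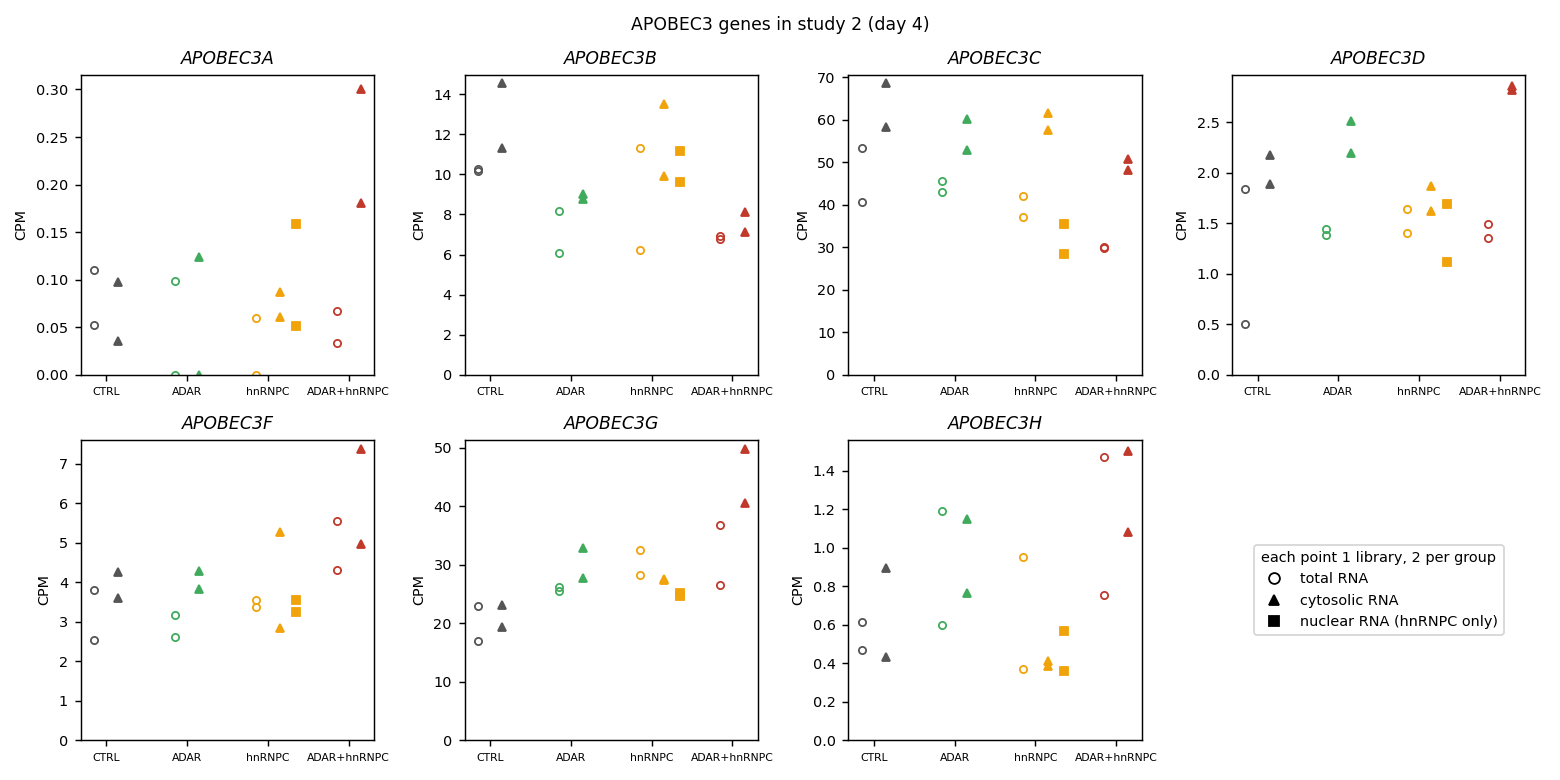
Normalised counts (CPM, linear axes from 0) of the 7 APOBEC3 genes in study 2 by gRNA group, with 1 point per library for total (open circles), cytosolic (triangles), and nuclear RNA (squares). Both cytosolic ADAR+hnRNPC libraries were above the other cytosolic libraries for APOBEC3G.

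Differences between the fractions stayed under the fold threshold for the 5 tested members. Over the 4 gRNA groups, APOBEC3D was higher in cytosolic than in total RNA by 0.68 (standard error 0.179), APOBEC3C by 0.52 (standard error 0.0702), APOBEC3F by 0.34 (standard error 0.135), and APOBEC3B by 0.31 (standard error 0.115) on the log2 scale, with adjusted p = 0.00249, 3.96e-06, 0.0311, and 0.0223. APOBEC3G had 0.17 (standard error 0.0838, adjusted p = 0.0763), equal to the median of all genes, 0.17. None of the 5 was called by edgeR, limma-voom, or DESeq2, with 4 at an unadjusted p under 0.05, where edgeR called 8.89% of genes in either direction. Against nuclear RNA of hnRNPC-targeted cells, cytosolic APOBEC3C was 0.90 higher (standard error 0.141, adjusted p = 2.64e-05), with 61.7 and 57.5 CPM against 28.4 and 35.5, and the other 4 tested members had 0.14 to 0.31 beside a median of all genes of 0.27. None of the 5 was called by edgeR, limma-voom, or DESeq2, with 1 at an unadjusted p under 0.05, where edgeR called 30.5% of genes in either direction. The nuclear transcripts MALAT1 and NEAT1 had −1.20 and −1.22 in cytosolic against total RNA, and the mitochondrial MT-ND1 −4.965. Editing in the members was read at sites with at least 10 reads per library, 25 in cytosolic and 32 in total RNA. In CTRL cells the level was 14.8 ± 0.0212% in cytosolic and 11.8 ± 0.827% in total RNA (SD, n = 2 each). With ADAR gRNA it was 2.32 ± 0.231% and 1.92 ± 0.431% (SD, n = 2 each). The sites differ between the fractions.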

How the data were processed

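Total RNA depleted of ribosomal RNA was sequenced in 66 libraries (stranded kit). The authors aligned reads to GRCh37 (STAR) and deposited counts of uniquely mapped reads on exons of GENCODE genes, introns, and editing-cluster regions (featureCounts), without normalization, and counts of edited and of all reads per editing site. The strand setting of counting is not given in the sources used here, so reads of antisense transcripts may be included. From these counts, edgeR 4.0.16 in R 4.3.3 (glmQLFit, glmQLFTest, TMM, 1 coefficient per group) was fitted on all 48 libraries of study 1 or all 18 of study 2, and per day on 12 libraries for interactions. Tested were 13193 and 13650 genes with an average log2 CPM of at least 0.5 and 21798 introns with at least 1. Calls needed an absolute log2 fold change of 1 and a Benjamini-Hochberg adjusted p of 0.05 (for interactions and differences between days, the adjusted p alone). Standard errors are the log2 fold change divided by the root of F. Each fit was tested on simulated data. Editing is given without a test, since the authors kept sites edited in a sample with intact ADAR, and sites with an empty value were left out. Coordinates and exon lengths are from a later annotation lifted to GRCh37.

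Alternatives were limma-voom (3.58.1), DESeq2 (1.42.0), RLE factors, no filter on low counts, a replicate block, GFP cells as controls, and leaving out each library. No 2 libraries of a group were copies (chi-square per gene at least 12.1). Genes to name were the 7 members, fixed lists, and the 2 genes most like each tested member. The members and lists were chosen with earlier results of these data known. All columns had a sample. Of the listed genes, APOBEC3A_B and PECAM1 were not matched, and some others are not reported here.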

Additional observations from a re-analysis of the deposited data

Results flagged for a closer look

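Responses of single members that differed between conditions by a test of the difference itself were looked at again, all by edgeR with adjusted p over all genes tested. The response to both gRNAs was larger on day 5 than on day 3 for APOBEC3G (2.14 on the log2 scale), APOBEC3F (1.99), and APOBEC3D (0.56), and smaller for APOBEC3C (−0.41). The value of APOBEC3D did not pass without any of 7 single libraries (0.42 to 0.57 then). The response to both gRNAs differed from the sum of the single responses on day 5 for APOBEC3G (1.48) and APOBEC3F (1.44), and on day 4 for APOBEC3C (−0.35). ITGAM, ADAR mRNA, and the restriction factors moved in the same libraries of day 5, and their part in these differences was not tested.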

How the results depend on the processing

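The counts of called members kept within 1.5 times under DESeq2, limma-voom, RLE factors, GFP cells as controls, and 1 model of all 48 libraries, except that the interaction on day 4 had 0 members with RLE factors. Same-numbered libraries of different groups correlated above 0.1 in 220 of 360 pairs of study 1 and 44 of 72 of study 2. Their median correlation was 0.17 and 0.152, against −0.0808 and −0.152 for other numbers. Same numbers were thus more alike, but not in every pair, and the main fits did not pair the samples. A replicate block changed none of 36 summaries (called members with both gRNAs on day 5 stayed 2, and the differences in editing, which are descriptions, were −5.66, −4.27, and −5.07 percentage points). Leaving out the filter on low counts added APOBEC3A and APOBEC3H. The called members were then 4 with both gRNAs on day 5 and 2 with IFN-α, where 8.25% and 0.697% of all genes were called higher. There were 4 for the interaction on day 5, where 7.36% of all genes were positive, and 0 for that on day 4. With hnRNPC gRNA on day 4, 1 was called (APOBEC3A, 0, 0, and 0 against 0, 2, and 7 counts), and 1 with both gRNAs in total RNA of study 2. Of 42 introns inside the 7 genes, 14 were called with both gRNAs, 5 with hnRNPC gRNA, and 2 with IFN-α. Shares over all features are not given for these introns or for the 2 comparisons with 1 called member. Those counts are therefore not read as results about the members. Leaving out single libraries gave 1 to 2 called members with IFN-α, 0 to 2 with hnRNPC gRNA on day 5, 0 to 1 for the interaction on day 4, and 0 to 1 intron with IFN-α (1.02 without CTRL replicate 1). In study 2 it gave 0 to 1 with ADAR, hnRNPC, or both gRNAs in total RNA, 0 to 1 with both in cytosolic RNA, 0 to 1 for cytosolic against nuclear RNA (APOBEC3C 1.055 without nuclear replicate 2), and 0 to 2 for the interaction in total RNA. The counts in total RNA moved mainly with APOBEC3D (for the interaction also APOBEC3C, −0.52 without CTRL replicate 1): without CTRL replicate 1 its log2 fold changes were 1.49 with ADAR, 1.595 with hnRNPC, and 1.498 with both gRNAs and its interaction −1.58, and without CTRL replicate 2 they were −0.34, −0.25, −0.31, and 0.28. Without CTRL replicate 2, APOBEC3F had 1.02 with both gRNAs. Where the cause of a move was not shown by the setting itself, the cause was not tested. Groups of 2 or 3 libraries and few reads at APOBEC3A, APOBEC3H, and the introns limit what could be detected.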
